A study of Homo sapiens with 9 samples.

Results

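The sites of HA-tagged BAZ2B were set against the sites of trimethylated lysine of histone H3 (H3K4me3) in the same cells, peak by peak. All peaks on chromosomes 1 to 22 and X were taken from the anti-HA list and from the H3K4me3 list of the tagged line. These were 6788 HA peaks and 16997 H3K4me3 peaks, 23785 of the 27108 peaks in the 3 lists of the series. The cells were A549, a human lung adenocarcinoma line grown in culture, in which an HA epitope had been inserted at the 5′ end of the endogenous BAZ2B gene. Both groups carry this tag. They differ in the antibody, anti-HA against anti-H3K4me3, and each holds 3 replicates. The sources do not say whether the tagged line is 1 clone. CUT&Tag, the assay, brings a transposase to an antibody in permeabilised cells, so that fragments are cut out around its target. A transfection with siRNA stands in the protocol but in no sample's labels. For H3K4me3 replicates 2 and 3 the antibody is written H3K4me4 and H3K4me5, and the titles, which read H3K4me3, were followed.

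BAZ2B is a large bromodomain protein that pairs with ATPases of the ISWI family, SMARCA1 and SMARCA5, in complexes that slide nucleosomes. Its PHD zinc finger is known to bind the unmodified histone H3 tail, and its bromodomain binds acetylated lysine. H3K4me3 is written by SET1 and MLL (KMT2) methyltransferases on the nucleosomes that flank the start sites of active genes, and it is widest over CpG-rich promoters. The series title places the study in the control of G-quadruplex DNA, a folded form of guanine-rich strands.

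Each list gives the positions and scores of 1 library, replicate 3 for HA and replicate 1 for H3K4me3 by the peak names, kept where at least 2 replicates had a peak. No value per replicate could be used, so nothing below has a replicate error or a test across cultures, and depth is unknown. Intervals on shares are exact 95% binomial (Clopper-Pearson) intervals over peaks and cover counting error only. Fold enrichment is the authors' ratio of a peak over the background that their peak caller estimated, and it is not scaled between the lists. The list of untagged cells, the background of the anti-HA assay, was not used here, so no HA peak below is shown to depend on the tag. Genes are not assigned to the peaks, which are named by chromosome band and by hg19 coordinates. A gene or gene group is mentioned only where its band is well known for it.

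HA peaks were almost all on H3K4me3 peaks, while most H3K4me3 peaks carried no HA peak. Of the 6788 HA peaks, 6719 (99% of the list, interval 98.7 to 99.2%) overlapped an H3K4me3 peak by at least 1 bp. Of the 16997 H3K4me3 peaks, 6724 carried an HA peak, 39.6% of the list (38.8 to 40.3%). H3K4me3 peaks with no HA peak numbered 10273, those with a single one 6670, those with 2 numbered 53, and 1 peak held 3. Seen from the HA side, 6660 peaks lay on a single H3K4me3 peak, 58 spanned 2, 1 spanned 3 and 69 met none. The matching threshold of 1 bp decided little: the smallest overlap of a matched HA peak was 40 bp and the next were 73 and 102 bp. Among the 69 unmatched HA peaks, the nearest lay 23 bp from an H3K4me3 peak, 2 lay within 1000 bp, and the median distance was 19782 bp. The unmatched peaks had a median width of 313 bp and a median fold enrichment of 4.81, against 8.20 for matched HA peaks.

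The H3K4me3 peaks that carried an HA peak were wider than those that did not, and differed less in fold enrichment. Median width was 980 bp (quartiles 683 and 1291) without an HA peak, 1337 bp (1066 and 1632) with a single one and 1732 bp (1431.5 and 2230.75) with several. Median fold enrichment of H3K4me3 was 8.96 without, 9.22 with a single and 6.86 with several HA peaks. The median −log10 q of the H3K4me3 peaks, the authors' measure of confidence in a peak, was 31.3, 55.2 and 40.5 in the same order. The quartile ranges of width overlapped between peaks with no and with a single HA peak, and those of peaks with several lay above the range of peaks with none.

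H3K4me3 peaks were divided into 5 groups by width and 5 by fold enrichment, each of about equal numbers. In every fold group, the share with an HA peak went up with each step of width. Among H3K4me3 peaks of the lowest fold group, it was 8.36% (6.87 to 10.1%) at 299 to 731 bp and 58.4% (55.7 to 61.2%) above 1544 bp. Among those of the highest fold group, it was 23.8% (20.6 to 27.3%) in the narrowest width group and 62.6% (54.2 to 70.4%) at 1253 to 1544 bp. Along fold the order was less regular. In the narrowest group the share went from 8.36 to 23.8% between the lowest and the highest fold, but at 1011 to 1253 bp it was 30.2% (23.9 to 37.0%) at the lowest and 25.3% (20.0 to 31.2%) at the next fold group, whose intervals overlap. Above 1544 bp, 50 of 72 peaks of the next to highest fold group carried an HA peak (69.4%, 57.5 to 79.8%), and the highest fold group held 3 peaks. The combination of wide and strong was rare, since wide H3K4me3 peaks had low folds: the median fold was 11.02 for peaks of 750 to 1000 bp and 4.58 for those above 2500 bp.

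**Figure D1:**
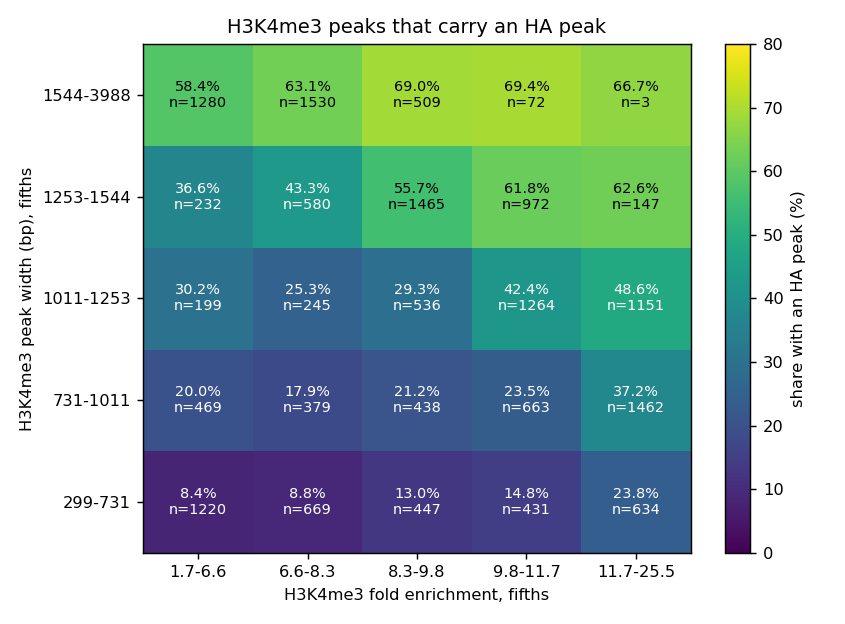
Share of H3K4me3 peaks that carry an HA peak (color and printed percentage, with the number of peaks n), by 5 groups of H3K4me3 width in bp (vertical) and 5 groups of H3K4me3 fold enrichment (horizontal). Shares are lowest for narrow, weak peaks at the lower left (8.36%) and reach 69.4% in the widest group.

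At up to 300 bp, 10 of 155 H3K4me3 peaks (6.45%, 3.14 to 11.5%) carried an HA peak, and above 2500 bp 136 of 204 did (66.7%, 59.7 to 73.1%). In the widest class, 68 of 204 peaks had no listed HA peak. In each of the 5 width groups, the peaks without an HA peak had the lower median −log10 q and fold. At 1253 to 1544 bp, the median −log10 q was 46.8 for 1551 peaks without and 60.9 for 1845 peaks with an HA peak, and the median folds were 8.99 and 9.42. Summits of the H3K4me3 peaks lay nearly as central in both classes of this width, a median of 9.67% and 8.41% of the peak's width away from its middle.

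The share with an HA peak was higher where the next H3K4me3 peak lay 5000 to 100000 bp away than in more crowded and in more isolated ones. An HA peak was on 162 of 514 H3K4me3 peaks with a neighbour within 500 bp (31.5%, 27.5 to 35.7%), on 70 of 245 at 500 to 1000 bp (28.6%) and on 356 of 1153 at 1000 to 5000 bp (30.9%, 28.2 to 33.6%). The share was 43.6% (41.3 to 45.8%) at 5000 to 10000 bp and 42.5% (41.5 to 43.4%) at 10000 to 100000 bp, and 1010 of 3062 peaks farther away carried one (31.3 to 34.7%). In the closest, the 10000 to 100000 bp and the most isolated group, median widths were 804.5, 1166 and 1146 bp, and median −log10 q 17.5, 45.7 and 39.3. The part of width and confidence in this difference was not tested.

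Several of the most confident H3K4me3 peaks had no HA peak at all. The 10 most confident such peaks had a −log10 q of 93.8 or more. At or above this limit, which the last of the 10 set, 125 of 135 H3K4me3 peaks carried an HA peak (92.6%). The count of 10 without one was thus fixed in advance, and no interval is given. The first of these 10 lay at 10q11.23 (chromosome 10, 51564996 to 51565885), 890 bp wide, with a fold enrichment of 17.8 and a −log10 q of 113. An HA peak lay 6.43 kb from it, the shortest such distance of the 10. At 11p14.3 (chromosome 11, 22850863 to 22851555), an H3K4me3 peak of 693 bp with a fold enrichment of 18.9 stood 2440.7 kb from the nearest HA peak, the longest distance of the 10. A peak of 1200 bp at 15q22.31 (chromosome 15, 65281492 to 65282691) had a fold of 12.8 and a −log10 q of 105.4. At 19q13.2, 2 of the 10 lay within the same band (chromosome 19, 40596129 to 40597234 and 39935331 to 39936914). The other 5 were at 17q21.32, 8q24.22, 10q25.1, 11q13.1 and 7q11.21. The 10 peaks were 693 to 1584 bp wide, on both sides of the list's median of 1133 bp, and their folds of 9.84 to 18.9 all lay above its median of 9.07.

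HA and H3K4me3 peaks that met only each other formed 6552 matched pairs, 96.5% of the HA peaks and 38.5% of the H3K4me3 peaks. Edge and summit positions and fold ranks were described in these pairs. HA peaks ended slightly inside the H3K4me3 peaks on both sides, and equally far on each. The HA start lay a median of 44 bp (quartiles -30 and 153) inside the H3K4me3 start, and the HA end a median of 45 bp (-28 and 147) inside the H3K4me3 end, where negative values mean outside. The HA start was inside in 65.1% of pairs (63.9 to 66.2%) and the HA end in 65.8% (64.6 to 67.0%). Edges rarely fell on the same base, in 47 pairs at the start and 49 at the end, but 67.6% of starts and 68.2% of ends lay within 150 bp of each other, about the length of DNA on a nucleosome. Both edges were within 50 bp in 660 pairs (10.1%, 9.35 to 10.8%).

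**Figure D2:**
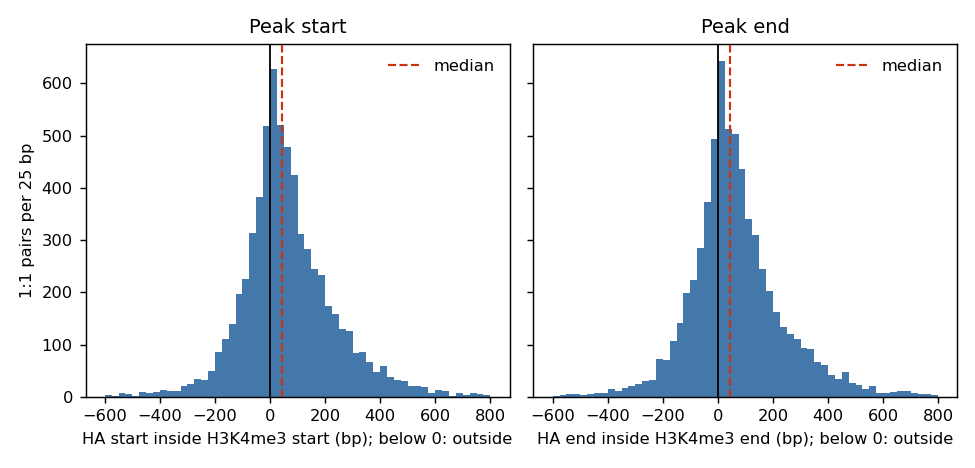
Distance in bp by which the HA start (left) or end (right) lies inside the H3K4me3 start or end of its pair, as counts of pairs per 25 bp, with the median as a dashed line. Both distributions peak near 0 with medians of 44 and 45 bp and a longer tail to the inside; 64 starts and 88 ends lie outside the range of -600 to 800 bp that is drawn.

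The HA peak lay wholly inside the H3K4me3 peak in 2637 pairs (40.2%, 39.1 to 41.4%), and the H3K4me3 peak inside the HA peak in 543 (8.29%, 7.63 to 8.98%). In the remaining pairs the HA peak was displaced along the genome, to lower coordinates in 1711 (26.1%) and to higher ones in 1661 (25.4%). Over all matched pairs, nested ones included, the centres of the peaks lay a median of 80 bp (35 and 146) apart. The HA peak covered a median of 88.0% of the H3K4me3 peak (76.5 and 95.5), and 98.2% of the HA peak was covered in turn. Where the centres differed by 200 bp or more, in 965 pairs, the HA summit was displaced the same way as the centre in 765 (79.3%, 76.6 to 81.8%).

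How far the edges retreated went with the strength of the HA peak. In 4 equal groups of pairs by HA −log10 q, those with the lowest values (up to 18.8) had the edges farthest inside: the HA start and end lay a median of 102 and 100.5 bp inside, and 64.4% of HA peaks were wholly inside. At 29.01 to 38.5, the medians were 17 and 18.5 bp and 28.8% were inside, and in the group above that 29 and 26 bp and 30.2%. The H3K4me3 peaks of the lowest group had a median width of 997 bp, and those of the group from 29.01 to 38.5 had 1450.5 bp. In 10 equal groups by H3K4me3 width, the median start offset was 80.5 bp in the narrowest (299 to 841 bp), 20 bp at 1563 to 1715 bp and 41 bp in the widest (1936 to 3786 bp). The median ratios of HA to H3K4me3 width in these 3 groups were 0.716, 0.961 and 0.945.

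In 398 pairs (6.07%, 5.51 to 6.68%) the HA peak covered under 50% of the H3K4me3 peak. These HA peaks had a median width of 363 bp and a median −log10 q of 6.17, against 29.0 over all pairs, and they held the H3K4me3 summit in 301 cases (75.6%, 71.1 to 79.8%). A wide one lay at 1q21.2 (chromosome 1, H3K4me3 peak 149857255 to 149860069), a band known for a cluster of histone genes. There an HA peak of 313 bp covered 11.1% of an H3K4me3 peak of 2815 bp, at its right end, and the summits were 1820 bp apart.

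Some HA peaks reached well beyond the mark. At 12q13.11 (chromosome 12, 47471236 to 47474552), an HA peak of 3317 bp began 1200 bp before its H3K4me3 peak of 2193 bp. At 4q24 (chromosome 4, 103746612 to 103749706) the overhang at the start was 1066 bp, and at 10p11.22 (chromosome 10, 33245280 to 33247806) it was 1042 bp. On the other side, the HA peak at 13q22.1 (chromosome 13, 73633012 to 73635497) ran 1420 bp past the H3K4me3 end, and that at 14q23.2 (chromosome 14, 62162285 to 62164250) 1143 bp. The fold enrichment of these 5 HA peaks was 3.70 to 5.17, and they stood between the percentile ranks 1.13 and 8.98 of HA folds in matched pairs. At Xq25 (chromosome X, HA peak 123094693 to 123096885), the HA peak of 2193 bp was displaced as a whole against an H3K4me3 peak of nearly its own width, 2182 bp, by 929 bp at the start and 940 bp at the end. The summits of this pair were 17 bp apart.

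Summits, the points of highest signal in each peak, lay close together in most pairs and at a second, preferred distance in others. The median distance was 84 bp (quartiles 27 and 275). Summits were within 50 bp of each other in 2506 pairs (38.2%, 37.1 to 39.4%) and within 100 bp in 54.3% (53.1 to 55.5%). Counts per 50 bp of distance were 206 pairs in the step from 200 bp, 169 from 250 bp, 266 from 300 bp, 299 from 350 bp, 238 from 400 bp and 163 from 450 bp. From 300 to under 450 bp there were 803 pairs (12.3%, 11.5 to 13.1%). In 579 of these (72.1%, 68.9 to 75.2%) the summits lay on opposite sides of the middle of the H3K4me3 peak, against 33.2% over all pairs. Distance alone raises this share, which was 77.6% over all pairs with summits at least 250 bp apart. Among the 803 pairs, the HA summit came after the H3K4me3 summit in genome order in 45.95% (42.5 to 49.5%) and before it in the rest.

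The second maximum was present in wide H3K4me3 peaks and not in the narrowest. In pairs with H3K4me3 peaks of 1245 to 1441 bp, 2.60% had summits in the step from 250 bp and 6.56% in the step from 350 bp. At 1442 to 1715 bp the values were 3.20 and 6.40%, and at 1716 bp and above 2.60 and 5.66%. At 1010 to 1244 bp they were 2.52 and 3.06%, and in the narrowest group, 299 to 1009 bp, 1.98 and 1.14%. The share of pairs with summits 250 bp or more apart was 6.06% in the narrowest of the 10 width groups and 57.8% in the widest. Median summit distance went from 51 to 347.5 bp over the same range. Narrow peaks leave little room for distant summits, so width itself limits these distances.

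**Figure D3:**
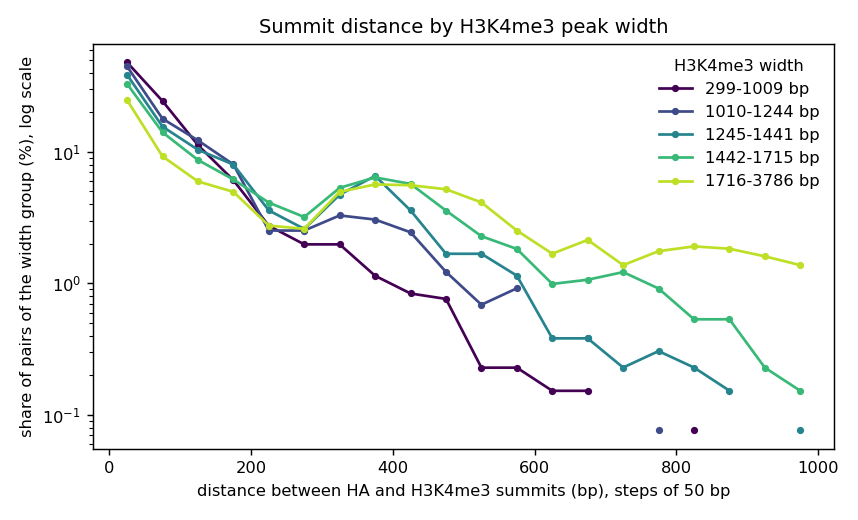
Share of pairs (log scale) by the distance in bp between HA and H3K4me3 summits, in steps of 50 bp, for 5 groups of H3K4me3 width; steps with no pair are left out. The 3 widest groups show a dip in the step from 250 bp and a second maximum in the step from 350 bp (5.66 to 6.56% of pairs), while the narrowest falls from 1.98 to 1.14%.

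Almost every HA summit, 6536 of 6552 (99.8%, 99.6 to 99.9%), fell inside the H3K4me3 peak, and 6430 H3K4me3 summits (98.1%, 97.8 to 98.5%) fell inside the HA peak. From the middle of the H3K4me3 peak, H3K4me3 summits lay a median of 121.5 bp away and HA summits 149 bp. The HA summit was the farther one from this middle in 3759 pairs (57.4%, 56.2 to 58.6%). Both were measured from the middle of the H3K4me3 peak, which favours the H3K4me3 summit. Distances from the middle of the HA peak were not taken, so neither summit is shown to be the more central in its own peak. Over all pairs 33.2% of summits stood on opposite sides of the middle, and 77.6% (75.5 to 79.5%) of the 1733 pairs with summits at least 250 bp apart, a share that distance alone raises.

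The most distant summits were in long peaks with low folds. At 10q24.31 (chromosome 10, H3K4me3 peak 102756688 to 102759952), the HA summit lay 1952 bp before that of H3K4me3, and the HA peak of 1540 bp covered 47.2% of an H3K4me3 peak of 3265 bp. At 2p22.3 (chromosome 2, 36582342 to 36585457), both peaks spanned nearly the same stretch, 3129 bp for HA and 3116 bp for H3K4me3, with the HA summit 1831 bp after the other. In this pair, nearly equal edges went with summits far apart. A pair at 12q13.13 (chromosome 12, 53892867 to 53895676) was of the same kind, with edges within 46 bp on both sides and summits 1790 bp apart. The others of the 5 most distant had unequal edges. The HA start lay 776 bp inside at 21q22.13 and 2474 bp inside at 1q21.2, and the HA end 1552 bp inside at 10q24.31.

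The fold enrichment of an HA peak followed that of its H3K4me3 peak in rank. Over 6552 pairs the Spearman correlation was 0.742, across peaks, which share their libraries and are not replicates. Widths of the paired peaks had a Spearman correlation of 0.871, and the part of width in the relation of folds was not tested. A straight line through the percentile ranks of fold had a slope of 0.742, and the residual of a pair is the HA rank minus the line, in percentile points. Residuals had an SD of 19.3 points, and 41.5% of pairs lay within 10 points of the line. They were skewed: 152 pairs (2.32%, 1.97 to 2.71%) fell more than 50 points below the line and 4 rose more than 50 above it.

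**Figure D4:**
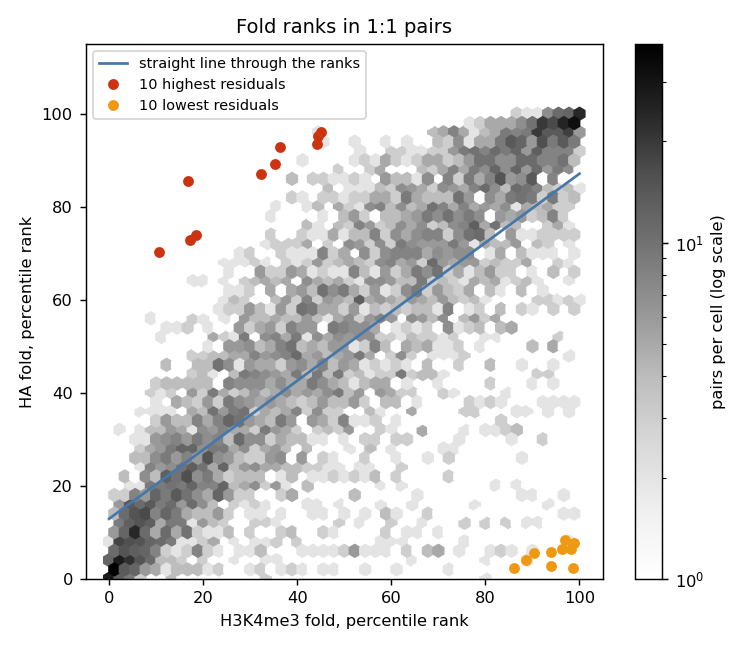
Percentile rank of HA fold enrichment against that of H3K4me3 in the matched pairs, as a density of pairs (log scale), with the straight line of slope 0.742. The 10 highest residuals (red, 47.1 to 60.1 points) have H3K4me3 ranks below 45, and the 10 lowest (orange, -83.7 to -74.5 points) have H3K4me3 ranks above 86.

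The 467 pairs more than 30 points below the line had narrow peaks in both lists. By the definition of the residual, their HA fold ranks were low for their H3K4me3 fold ranks, so the folds are no separate finding. The H3K4me3 peaks of these 467 pairs had a median fold of 10.9 and a median width of 822 bp. The HA peaks had a median width of 466 bp and a median −log10 q of 6.20. The 226 pairs more than 30 points above the line had H3K4me3 peaks of 1408.5 bp and fold 8.80 (medians), with HA peaks of 1184 bp and a −log10 q of 42.1. The list holds 161 HA peaks of its narrowest width, 292 bp, and the 130 of them in matched pairs all had negative residuals. Over all pairs 53.7% had residuals above 0. HA fold enters the residual, so the sign in these 130 is no finding separate from their folds.

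Over the 10 groups of H3K4me3 width, the median residual was -20.3 points in the narrowest (299 to 841 bp), 8.95 at 1245 to 1342 bp and -6.03 at 1936 bp and above. The quartile ranges overlapped between all neighbouring groups. The median H3K4me3 fold was 12.3 at 842 to 1009 bp and lower in each wider group, down to 5.85. With H3K4me3 width added to the line, the median residuals of the same 3 groups were -8.21, 7.50 and -10.5 points. With ranks of −log10 q in place of fold they were -12.2, 3.36 and 6.55, so the sign in the widest peaks depended on the measure.

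The 10 pairs highest above the line lay on 7 chromosomes, 3 of them on chromosome 19, which held 463 of all 6552 matched pairs. The highest was at 19q13.42 (chromosome 19, HA peak 55987526 to 55988896), where the HA fold of 11.1 ranked at the 85.5th percentile and the H3K4me3 fold of 6.80 at the 16.8th, a residual of 60.1 points. The HA peak of 1371 bp covered 90.6% of the H3K4me3 peak, and the summits were 30 bp apart. At 19q13.11 (chromosome 19, 33793237 to 33794345) the residual was 53.0 points, with an HA fold of 12.3 and an H3K4me3 fold of 8.34, but it was 8.39 points by ranks of −log10 q. The third was at 19q13.2 (chromosome 19, 39109569 to 39110768), with 50.2 points and HA and H3K4me3 folds of 11.3 and 8.05. Pairs at Xp11.23 (chromosome X, 49125308 to 49126655 and 48659852 to 48661216) had 50.1 and 49.5 points. The HA peaks of the 10 were 1037 to 1443 bp wide and their H3K4me3 peaks 1292 to 1935 bp. Summits were within 100 bp in 8 of the 10, against 54.3% of all matched pairs. The HA widths of the 10 lay on both sides of the list's median of 1219 bp, unlike those of the lowest pairs.

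The 10 pairs farthest below the line had, by definition, high H3K4me3 fold ranks and low HA fold ranks. These pairs combined H3K4me3 peaks of 503 to 853 bp with HA folds of 4.01 to 5.07. The lowest was at 16p12.2 (chromosome 16, HA peak 21295125 to 21295416), with an HA fold of 4.01 at the 2.31st percentile and an H3K4me3 fold of 16.2 at the 98.6th, a residual of -83.7 points. It was followed by 1q21.2 (chromosome 1, 147860758 to 147861049) at -79.8 points and 4q12 (chromosome 4, 58030005 to 58030296) at -79.4. The pair at 4q35.2 (chromosome 4, 191043898 to 191044310), near the end of the long arm, had -78.5 points. Of the 10 HA peaks 6 had the narrowest width of 292 bp, and their −log10 q ran from 2.83 to 4.39, so they were among the least certain HA peaks. All 10 had summits within 100 bp, against 54.3% of all matched pairs. Summits lay closer in narrow H3K4me3 peaks, with a median distance of 51 bp at 299 to 841 bp and 84 bp over all pairs. By ranks of −log10 q the residuals of the 10 lowest pairs were -39.5 to -19.2 points. These were still negative, but none of the 10 was among the 100 lowest. Those of the 10 highest pairs were 8.39 to 65.7, and 4 of them were among the 100 highest.

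Residuals differed little between chromosomes next to their spread within one. The median was highest on chromosome 19, at 6.63 points (quartiles -7.56 and 17.9, 463 pairs), and lowest on chromosome 6, at -4.27 points (-14.9 and 7.60, 307 pairs). Chromosome 20 had 4.66 points and chromosome 4 had -2.18. This order depended on the measure: by ranks of −log10 q, chromosome 17 was highest with 4.50 points, chromosomes 21 and X were lowest with -8.10 and -7.07, and chromosomes 19 and 6 had 1.23 and -6.11. Over 38 windows of 5 Mb with at least 30 pairs each, the highest median was 12.8 points at 19q13 (chromosome 19, 35000001 to 40000000), with 38 of 55 pairs above the line. Over all pairs 53.7% were above it, and the median over the 38 windows was 5.40 points. The 3 adjacent windows of 1q from 150000001 to 165000000 followed with 12.6, 10.8 and 11.1 points. The lowest was -6.80 points on 6p22 (chromosome 6, 25000001 to 30000000), the region of the largest histone gene cluster, with 27 of 76 pairs above the line. The H3K4me3 peaks of these 6p22 pairs were narrow, with a median of 1060 bp against 1307 bp in the window on 19q13. With width added to the line, the 6p22 median was 0.905 points and the 19q13 median 12.1. The windows were singled out after their values were seen.

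H3K4me3 peaks with several HA peaks, 54 in number (0.318% of the list), were long and had low folds. They made up 0 of 2248 peaks (up to 0.164%) at 500 to 750 bp, 0.553% (0.317 to 0.897%) at 1500 to 2000 bp and 2.45% (0.801 to 5.63%) above 2500 bp. Among H3K4me3 peaks of 1431.5 to 2230.75 bp, the quartiles of their own widths, the median fold was 7.46 for 26 peaks with several, 7.76 for 2432 with a single and 7.50 for 1598 with no HA peak, with quartile ranges that overlapped. They lay on 18 chromosomes. The HA peaks in one H3K4me3 peak were separated by a median of 213 bp (quartiles 159 and 258.5, range 134 to 811), and 45 of 55 gaps were under 300 bp. No HA peaks in the whole list stood closer than 134 bp, so shorter gaps could not be seen. The narrowest HA peak was 292 bp, but HA peaks may overhang, since a match needed only 1 bp of overlap. The part of room in the count at 500 to 750 bp was not tested. The wider HA peak of each group had a median of 1019 bp and the narrower 431.5 bp, with median folds of 6.02 for the higher and 4.04 for the lower. The H3K4me3 summit fell in one of the HA peaks in 49 of 54 cases. Leaving out 4 with tied folds, it fell in the HA peak of higher fold in 34 of 50, and that peak was also the wider one in 46 of the 50. The part of width was not tested.

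The only H3K4me3 peak with 3 HA peaks was at 18p11.31 (chromosome 18, 5294659 to 5296889), 2231 bp wide with a fold of 5.47. Its HA peaks of 931, 562 and 502 bp had folds of 5.47, 5.17 and 4.71, and the H3K4me3 summit lay in the middle one. The longest with 2 was at 20p13 (chromosome 20, 304888 to 308376), 3489 bp wide, where HA peaks of 968 and 2233 bp had folds of 2.50 and 4.32 and a gap of 290 bp, and neither held the H3K4me3 summit. At 7q22.3 (chromosome 7, 104652812 to 104655794) the gap was 140 bp, and the HA peaks covered 95.3% of the H3K4me3 peak. At 11p11.2 (chromosome 11, 46141082 to 46143961), by contrast, the HA peaks of 1034 and 793 bp covered 60.3%, and the H3K4me3 summit was in the weaker one (fold 2.89 against 6.32). The count of such peaks was 15 when both lists were limited to a −log10 q of at least 10.

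**Figure D5:**
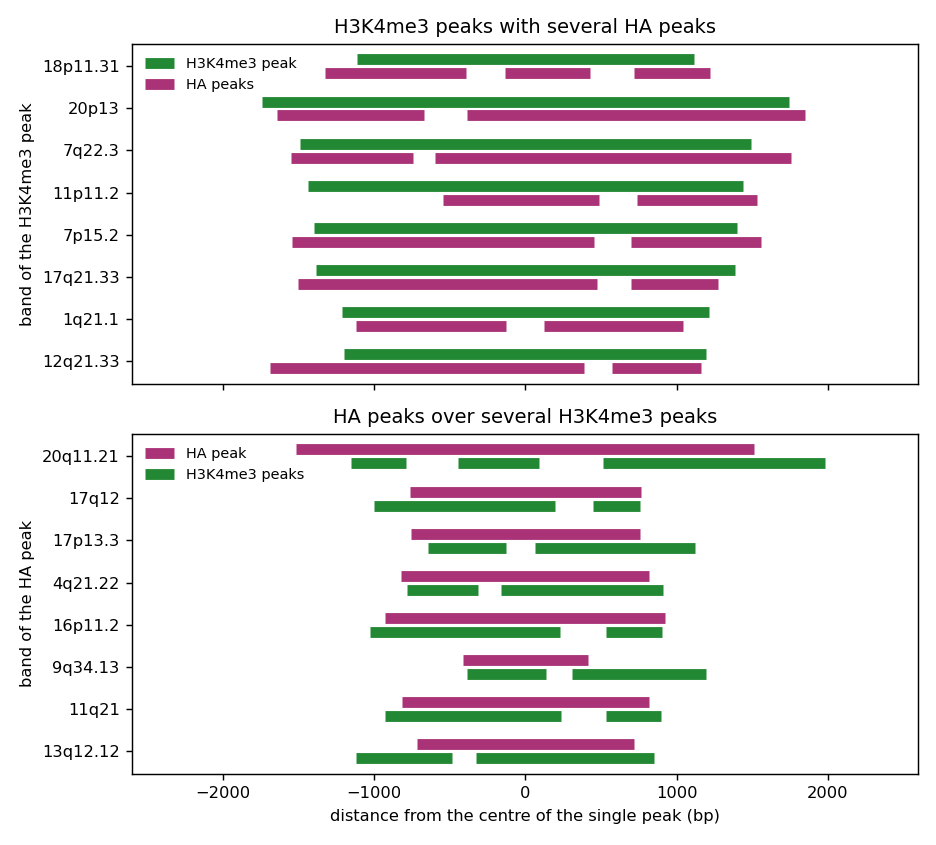
Maps of the 8 H3K4me3 peaks with the most HA peaks (top, wider first) and of the first 8 HA peaks over several H3K4me3 peaks (bottom, most peaks and then highest HA fold first), each as bars against the distance in bp from the centre of the single peak, with its band. At 18p11.31, 3 HA peaks lie under 1 H3K4me3 peak, and at 20q11.21, 3 H3K4me3 peaks lie under 1 HA peak.

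The reverse arrangement, an HA peak over several H3K4me3 peaks, was found 59 times (0.869% of HA peaks). These HA peaks were long, with a median of 2008 bp (1679 and 2507.5), and bridged H3K4me3 gaps of 132 to 1088 bp with a median of 276 bp. No H3K4me3 peaks in the whole list stood closer than 132 bp, so shorter gaps could not be seen. The H3K4me3 peaks under these HA peaks were unequal, with median widths of 1309 bp for the wider and 540 bp for the narrower. Their median folds were 5.79 for the higher and 3.30 for the lower. The HA summit fell on an H3K4me3 peak in 56 of 59 cases, and on the one of higher fold in 43. The H3K4me3 peak of higher fold was also the wider in 53 of 59, and the part of width was not tested. Of neighbouring H3K4me3 peaks up to 200 bp apart, 16 of 76 pairs shared an HA peak (21.1%, 12.5 to 31.9%). The counts were 19 of 81 at 200 to 300 bp, 15 of 103 at 300 to 500 bp, 9 of 127 at 500 to 1000 bp and 1 of 152 at 1000 to 2000 bp. Of the 76 closest neighbours, 50 pairs carried no HA peak at all, 10 carried one on a single member and 0 carried separate ones. Of neighbouring HA peaks, nearly all of which lay on H3K4me3, 26 of 27 pairs up to 200 bp apart and 4 of 14 at 500 to 1000 bp shared an H3K4me3 peak.

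The HA peak at 20q11.21 (chromosome 20, 30308283 to 30311313), 3031 bp wide with a fold of 3.97, lay over 3 H3K4me3 peaks of 367, 537 and 1468 bp, and its summit was in the middle one although the last had the highest fold (4.23). The strongest over 2 was at 17q12 (chromosome 17, 33914164 to 33915690), with a fold of 10.9, over H3K4me3 peaks of folds 11.6 and 3.69. At 11q13.3 (chromosome 11, 69455770 to 69458148), the band of the cyclin gene CCND1, an HA peak of 2379 bp with a fold of 6.72 spanned H3K4me3 peaks of 4.88 and 3.20. At 8q24.21 (chromosome 8, 128748095 to 128751342), the band of MYC, an HA peak of 3248 bp spanned an H3K4me3 peak of 1584 bp with a fold of 2.94, which held its summit, and one of 2221 bp with a fold of 2.68. These 2 sites were chosen after their values were seen. In the histone gene region of 6p22 there were 3 such HA peaks, with folds of 8.42 (chromosome 6, 27144492 to 27146426), 4.17 (26124000 to 26126716) and 3.74 (27860588 to 27863375). Chromosomes 17 and 20 held 7 and 6 of the 59. Such peaks made up 0.869% of all HA peaks, and their share within 6p22 or within single chromosomes was not computed. The count of 59 over the whole list fell to 33 with both lists limited to a −log10 q of at least 10.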

How the data were processed

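CUT&Tag peak lists of 2 groups of tagged A549 cells, 3 replicates each, were used. Per the submitters' processing notes, reads were processed with Bowtie2 2.4.5, Picard, SAMtools 1.15.1, bedtools and MACS2 2.1.4 on hg19 and dm6. The sources do not give caller settings, controls or any use of the 35 ng Drosophila spike-in. Per the labels, the replicate with the longest peak list was intersected with the others and its peaks present in at least 2 replicates were deposited. Start, end and summit offset were used as deposited by the authors. The deposited fold enrichment is a ratio and the deposited −log10 q a confidence, both per library, and they served only to rank, filter or describe peaks. Groups came from the sample titles.

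Peaks were matched by 1 bp, and offsets, summit distances and rank residuals were computed in pairs that met only each other. Python 3.11.15, numpy 2.4.6, pandas 2.3.3, scipy 1.17.1 and matplotlib 3.10.9 were used, with hg19 bands from circlize 0.4.16. The steps were tested on simulated peaks. Named peaks are the 10 highest and lowest residuals, the 10 H3K4me3 peaks with most HA peaks, the 10 of highest −log10 q with none, the 10 HA peaks over most H3K4me3 peaks, and the 5 most extreme edges and summit distances, of which the first few are printed. Members and rules were chosen with earlier results of these data known. No hg19 gene annotation or sequence was used, so the planned gene groups, markers and sequence content are not analysed here.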

Additional observations from a re-analysis of the deposited data

Results flagged for a closer look

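Peaks outside chromosomes 1 to 22 and X were left out of all comparisons. There were 239 such HA peaks and 633 such H3K4me3 peaks, mostly on alternative haplotypes of chromosome 6 (198 and 533). Of these HA peaks, 235 (98.3%, 95.8 to 99.5%) overlapped an H3K4me3 peak, and 232 of the 633 H3K4me3 peaks (36.7%, 32.9 to 40.5%) carried an HA peak. Haplotype contigs repeat sequence of chromosome 6, so these peaks are not independent of those counted above.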

How the results depend on the processing

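The share of HA peaks on H3K4me3 was 98.4% with an overlap of 50% of the HA peak, 91.5% with 50% of both peaks, 98.7% with the HA summit inside, and 99.6 and 99.9% with a −log10 q of at least 5 and 10. HA peaks were on 36.5% of H3K4me3 peaks under the rule of 50% of both, 38.7 and 38.4% at these −log10 q limits and 42.3% for H3K4me3 peaks of at least 500 bp. Peaks with several HA peaks numbered 0 with 50% of both peaks, which the rule itself forbids, and 15 at a −log10 q of 10. HA peaks over several H3K4me3 peaks numbered 0 under each stricter overlap (50% of the HA peak, of both peaks, or the summit), again by construction, and 33 at a −log10 q of 10.

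In matched pairs, median start and end offsets were 37 and 38 bp, and HA peaks wholly inside 37.3%, with an overlap of 50% of both peaks. They were 33 bp, 36 bp and 35.9% at a −log10 q of 10. Median summit distance was 77.5 bp for H3K4me3 peaks of 500 to 2000 bp. The Spearman correlation of fold ranks was 0.764 with 50% of both peaks, 0.837 at a −log10 q of 10, 0.704 at 500 to 2000 bp and 0.756 without HA peaks of the narrowest width, an alternative chosen after seeing the data. With −log10 q in place of fold it was 0.723. The cause of these shifts was not tested. The 10 highest and 10 lowest residuals kept their signs with width in the line, with a running median and with ranks of −log10 q, where the lowest ones were -39.5 to -19.2 points. All 20 stayed among the 100 most extreme on their side under the first 2 of these settings, but by −log10 q only 4 of the highest and 0 of the lowest did. No paired analysis was possible because the lists give no value per replicate, and no replicate could be left out. Depth is unknown, so a missing HA peak does not show that BAZ2B was absent.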
